A study of Mus musculus with 4 samples.

Results

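Cell cycle and DNA replication genes were examined as a group of 43 genes, out of the 19896 genes that could be named on the array. They were chosen by symbol and found through the RefSeq transcript accession printed for each probe, and all 43 had at least 1 probe, 60 probes in all. They fall into 15 genes of G1 entry, 13 genes of DNA replication and 15 genes of mitosis. The arrays measured total RNA of CD4 T cells, the helper lymphocytes, taken from lymph nodes of male mice aged 7 weeks. The 4 groups, with 1 array each, were Med23 knockout cells stimulated for 6 h, Med23 knockout cells left unstimulated, wildtype cells stimulated for 6 h and wildtype cells left unstimulated. Med23 is a subunit of Mediator, which links transcription factors to RNA polymerase II, and the series asked which genes need it when the T cell receptor is engaged. How Med23 was deleted, in which cells, and whether RNA of several animals was pooled are not stated in the labels or files.

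Resting T cells sit outside the cell cycle in G0. In textbook descriptions, receptor signals raise D-type cyclins, which with their kinases inactivate the retinoblastoma family and free E2F factors to drive genes of DNA replication. Genes of mitosis follow in S and G2 phase through cyclin A, FoxM1 and the B-Myb complex, and a naive T cell needs about a day to reach its first S phase. RNA of these genes in a freshly taken cell population can also come from the few cells that are already cycling, and in a bulk sample fewer cells of a type and less RNA per cell cannot be told apart.

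A level here is the log2 signal of a gene relative to the 75th percentile of its array, averaged over its probes, and a difference is a difference of such levels. Values below a floor of -5.01 were set to it, and a gene is called measured where 1 or more of the compared arrays put it above that value. Since probes differ in brightness, levels are compared between arrays, and mean levels were ranked over genes only to choose 3 members of each group to name. With 1 array per group no comparison of 2 groups has a replicate check, so genes are called by size, at 2-fold, which is a log2 difference of 1. Repeated spots of the same probe gave an SD of a log2 difference of 0.0958 to 0.118 for levels above 1 and of 0.467 to 0.757 between the floor and -3. This error covers spots on an array and not animals or cultures. Only 2 of the 60 member probes, those of Rb1 and Bub1, had 10 spots, and the other 58 had 1. A spot SD set beside a member below is therefore that of the array's probes with 10 spots in the same range of levels.

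The arrays differed in brightness, with 75th percentiles of the raw signal between 243.7 and 332.6 in the other 3 arrays and 680.8 in the stimulated wildtype array. Markers of T cells were present in all 4 arrays. The T cell receptor subunit Cd3e had levels of 7.36 and 7.90 in stimulated and unstimulated cells labelled knockout, and of 6.97 and 7.86 in stimulated and unstimulated wildtype cells. Markers of some other blood cells stood out in the stimulated wildtype array. All 16 neutrophil precursor genes were 2-fold higher there than in the unstimulated wildtype array, where 8 of them, Mpo, Ltf, S100a8, S100a9 and Lyz2 included, were at the floor. Their summed linear level was 344.2 in stimulated wildtype cells, against 2.88 to 3.50 in the other 3 arrays, and that of 13 red cell genes was 158.3, against 2.61 to 4.22. The Med23 probe had levels of -2.29 and -0.75 in stimulated knockout and wildtype cells, and of -1.66 and -1.59 in the unstimulated ones. The unstimulated pair thus goes against the label, and since the position of the probe relative to the deletion is not known it may check nothing. The arrays are called labelled knockout below.

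Of the 43 members, 37 were above the floor in all 4 arrays. The mitotic kinases Cdk1, with 3 probes, and Aurkb, and cyclin E2 (Ccne2), were at the floor in all 4. Cyclin D1 (Ccnd1), its partner kinase Cdk6 and the origin licensing factor Cdc6 were above it in some. The 12 T cell receptor response genes used as a check of the stimulation, Nr4a1, Egr1, Myc and Il2 among them, all rose, with a median difference of 3.75 over both genotypes in the limma fit described below.

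**Figure D1:**
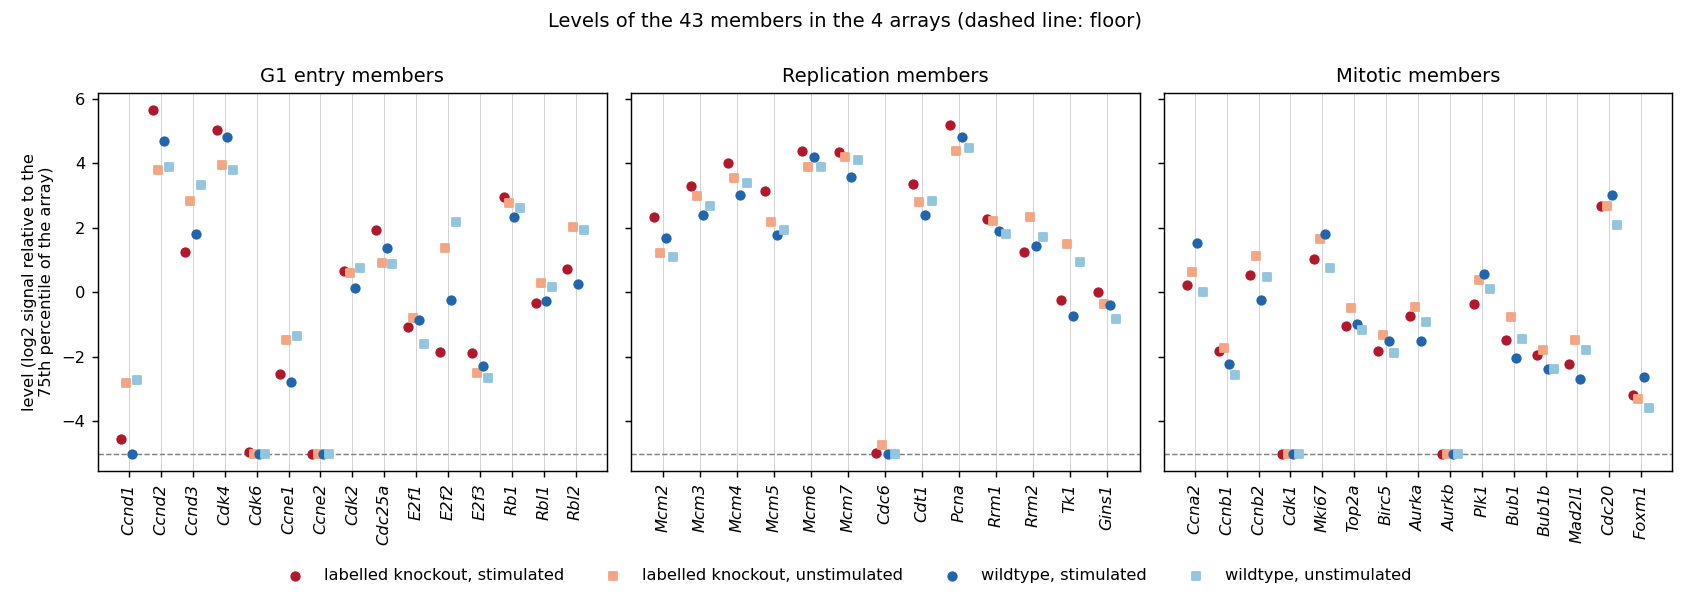
Levels of the 43 members in the 4 arrays, on the log2 scale relative to the 75th percentile of each array, with stimulated and unstimulated cells labelled knockout (red, orange) left of stimulated and unstimulated wildtype cells (dark and light blue). Each point is 1 array, and the dashed line is the floor at -5.01, where Ccne2, Cdk1 and Aurkb lie in all 4 arrays.

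The promoters of the 3 groups are given as sequence context, with the short motifs that cell cycle factors are known to bind. Windows of 250 bases before to 50 bases after the gene start, from RefSeq on GRCm38.p6, were on hand for 34 members, some with 2 windows. A core motif of E2F, counted on either strand as the letters TTCCCGC, as the variant TTCGCGC, as the variant TTGCCGC or as the variant TTGGCGC, was in 9 of 12 replication windows, 5 of 14 G1 windows and 3 of 12 mitotic windows, against 9.57% of the 32851 windows of all genes. The CCAAT box, CCAAT on either strand, which the factor NF-Y binds, was in 10 of 12 mitotic windows, 9 of 12 replication windows and 6 of 14 G1 windows, against 37.4% of all. The cell cycle homology region, counted as TTTGAA or TTCGAA on either strand, was in 9 of 12 mitotic windows, 2 of 12 replication windows and 3 of 14 G1 windows, against 19.2% of all. A match is a run of letters and no measured binding site, and matches of E2F and CCAAT motifs overlapped in 2 member windows.

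The windows of 8 named members, taken by their mean stimulation difference within each group, are given 5′ to 3′ on the strand of the gene, with matches to these motifs in capitals. They are Cdk4 (chr10:127063285-127063584, plus strand), E2f2 (chr4:136172024-136172323, plus strand, the first of its 2 windows), the sliding clamp Pcna (chr2:132253131-132253430, minus strand), the helicase subunit Mcm6 (chr1:128359656-128359955, minus strand), Tk1 (chr11:117825965-117826264, minus strand), and the mitotic genes Cdc20 (chr4:118437294-118437593, minus strand), Mki67 (chr7:135716330-135716629, minus strand) and Plk1 (chr7:122159185-122159484, plus strand).
Cdk4: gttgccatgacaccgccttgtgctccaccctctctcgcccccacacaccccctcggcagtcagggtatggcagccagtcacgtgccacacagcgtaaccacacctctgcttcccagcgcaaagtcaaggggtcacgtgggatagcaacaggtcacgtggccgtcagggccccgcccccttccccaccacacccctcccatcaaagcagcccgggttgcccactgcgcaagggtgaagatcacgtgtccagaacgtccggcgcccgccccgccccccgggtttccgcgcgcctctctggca
E2f2: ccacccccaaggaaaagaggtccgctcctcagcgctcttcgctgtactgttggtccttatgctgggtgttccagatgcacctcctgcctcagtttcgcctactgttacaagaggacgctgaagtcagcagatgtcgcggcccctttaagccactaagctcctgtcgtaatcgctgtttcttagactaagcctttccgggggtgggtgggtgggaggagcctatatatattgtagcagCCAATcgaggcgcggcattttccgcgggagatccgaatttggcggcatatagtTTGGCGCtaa
Pcna: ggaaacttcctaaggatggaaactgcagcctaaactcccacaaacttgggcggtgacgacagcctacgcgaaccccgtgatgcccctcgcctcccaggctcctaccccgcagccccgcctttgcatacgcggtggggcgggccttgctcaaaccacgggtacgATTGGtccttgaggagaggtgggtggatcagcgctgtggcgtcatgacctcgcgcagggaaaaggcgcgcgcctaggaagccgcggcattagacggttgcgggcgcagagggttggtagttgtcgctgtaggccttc
Mcm6: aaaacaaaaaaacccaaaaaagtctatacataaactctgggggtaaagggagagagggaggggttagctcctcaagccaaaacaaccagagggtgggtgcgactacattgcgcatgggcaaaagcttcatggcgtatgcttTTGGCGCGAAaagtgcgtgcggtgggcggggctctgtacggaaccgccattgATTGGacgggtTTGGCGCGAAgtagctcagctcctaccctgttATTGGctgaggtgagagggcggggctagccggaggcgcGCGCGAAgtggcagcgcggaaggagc
Tk1: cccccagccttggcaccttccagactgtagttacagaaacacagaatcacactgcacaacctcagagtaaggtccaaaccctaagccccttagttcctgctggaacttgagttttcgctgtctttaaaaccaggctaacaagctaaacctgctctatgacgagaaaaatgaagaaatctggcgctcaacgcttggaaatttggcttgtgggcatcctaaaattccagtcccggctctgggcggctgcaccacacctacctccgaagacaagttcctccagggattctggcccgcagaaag
Cdc20: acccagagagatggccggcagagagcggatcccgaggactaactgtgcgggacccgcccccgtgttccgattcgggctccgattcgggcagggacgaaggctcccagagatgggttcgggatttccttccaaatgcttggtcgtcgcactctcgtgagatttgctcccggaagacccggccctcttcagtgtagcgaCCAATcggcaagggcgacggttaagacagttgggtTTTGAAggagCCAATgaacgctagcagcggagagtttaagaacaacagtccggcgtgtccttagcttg
Mki67: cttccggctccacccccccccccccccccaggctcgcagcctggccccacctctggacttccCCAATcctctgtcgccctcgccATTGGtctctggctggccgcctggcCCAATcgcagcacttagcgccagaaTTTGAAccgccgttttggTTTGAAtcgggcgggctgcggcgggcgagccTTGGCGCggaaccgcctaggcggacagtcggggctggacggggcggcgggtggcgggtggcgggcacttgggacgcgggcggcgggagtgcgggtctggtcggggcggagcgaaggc
Plk1: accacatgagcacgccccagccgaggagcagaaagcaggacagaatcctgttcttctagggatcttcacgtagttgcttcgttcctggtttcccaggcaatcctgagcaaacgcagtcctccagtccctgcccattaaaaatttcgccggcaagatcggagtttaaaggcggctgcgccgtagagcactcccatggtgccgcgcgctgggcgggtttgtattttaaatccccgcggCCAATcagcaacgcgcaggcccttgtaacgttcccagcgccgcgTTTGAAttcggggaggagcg
The windows of Cdk4 and of Tk1, the replication member that fell in the fit described next, hold none of the 3 motifs, and that of Pcna holds 1 CCAAT box. In the Mcm6 window the E2F core occurs on both strands of 1 stretch of 10 letters, which it holds at -109 to -100 and again at -46 to -37 from the gene start. The Cdc20 window holds its homology region motif at -18 to -13, between CCAAT boxes at -53 to -49 and at -8 to -4. Mki67 has 3 CCAAT matches, 2 homology region motifs and 1 E2F core, and Plk1 has 1 CCAAT box and 1 homology region motif. E2f2 has 1 CCAAT box and 1 E2F core, the core lying at 41 to 47 after the start.

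Stimulation moved 5 members in a fit over all 4 arrays, all of them downward, and 4 of the 5 belong to G1 entry. The question was which members respond to 6 h of stimulation whatever the genotype. The fit was limma's, with genotype and stimulation as additive terms, so that the genotypes served as repeats of each other with 1 residual degree of freedom, and p-values were adjusted by Benjamini-Hochberg over 13804 genes. E2f2, Ccnd1, Ccnd3, Rbl2 and Tk1 fell, and 0 of the 39 members tested rose. Over all genes 7.25% fell, 7.09% rose and 14.3% were called in either direction, and the 5 of 39 members called in either direction are near that last share. At an unadjusted p under 0.05 there were 11 members, against 30.6% of all genes. These calls rested on all 4 arrays. In a fit of stimulation alone over 3 arrays, no gene at all passed without the array of stimulated or unstimulated cells labelled knockout or without that of unstimulated wildtype cells, although 1990 to 5658 genes, 5 to 16 members among them, had an unadjusted p under 0.05. Without the stimulated wildtype array, the one rich in neutrophil and red cell genes, Ccnd1 and Rbl2 passed (adjusted p = 0.0479 and 0.0483) as lower, E2f2, Ccnd3 and Tk1 did not (0.0575, 0.0682 and 0.101), and Ccnd2, Cdc25a and Mcm2 passed as higher.

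**Figure D2:**
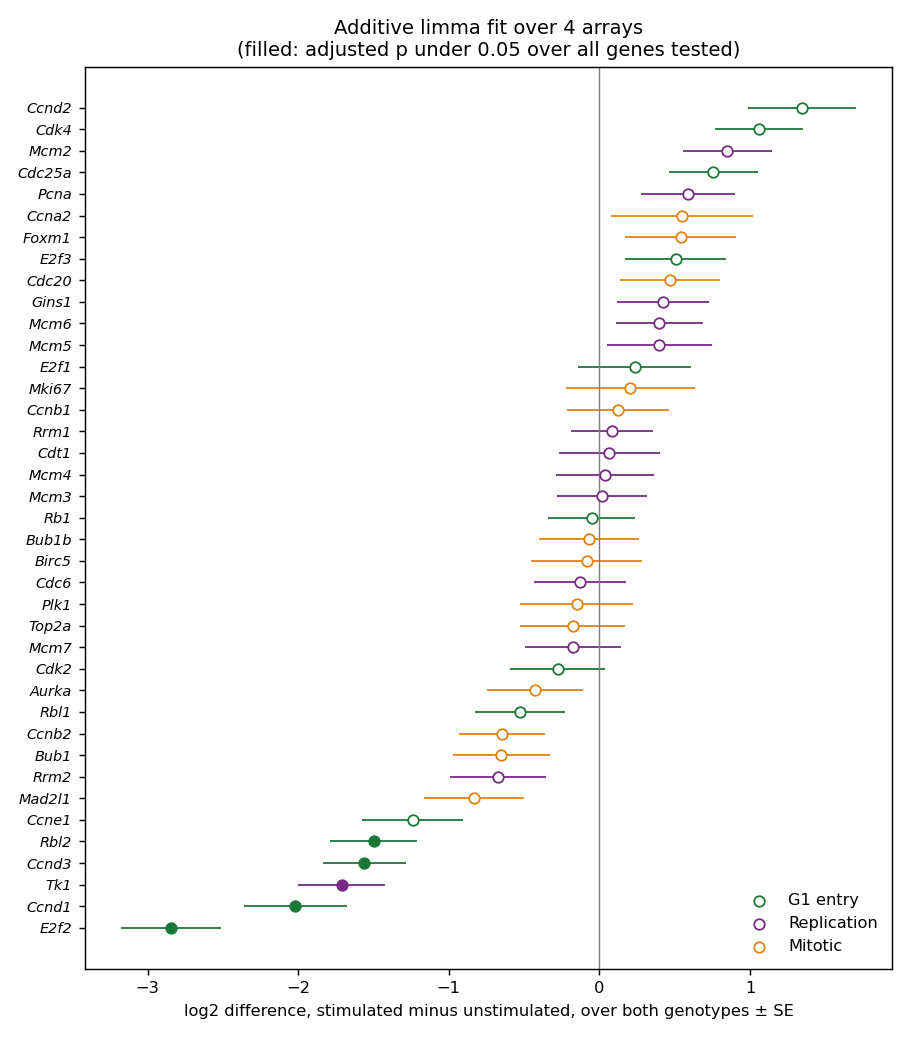
Log2 difference, stimulated minus unstimulated over both genotypes, of the 39 members in limma's additive fit over 4 arrays, as point ± SE and coloured by group. The 5 filled points, from E2f2 (-2.84) to Rbl2 (-1.498), have an adjusted p under 0.05.

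E2f2, an activating member of the E2F family, had the largest difference of the group. Its level was -1.87 in stimulated and 1.38 in unstimulated cells labelled knockout, and -0.25 in stimulated and 2.18 in unstimulated wildtype cells. Both stimulated arrays were below both unstimulated ones. E2f2 was 9.53-fold lower in the cells labelled knockout and 5.40-fold lower in wildtype, and fell by 2.84 ± 0.33 (SE) in the fit (adjusted p = 0.00725). The related E2f1, also an activator, behaved otherwise, with levels of -1.09 and -0.80 in stimulated and unstimulated cells labelled knockout and of -0.85 and -1.61 in stimulated and unstimulated wildtype cells. E2f3 differed by 0.64 in the cells labelled knockout and 0.37 in wildtype, and neither E2f1 nor E2f3 passed the test (adjusted p = 0.745 and 0.370). Of the 2 E2f3 probes the dimmer was below the floor in both unstimulated arrays, so its part is a bound. The brighter differed by only 0.14 and 0.079. Of these 3 activators of 1 family, only E2f2 thus passed the test.

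Of the D-type cyclins, which activate Cdk4 and Cdk6, Ccnd1 and Ccnd3 fell, and Ccnd2 did not pass the test. Ccnd3 fell, with levels of 1.24 and 2.84 in stimulated and unstimulated cells labelled knockout, and of 1.80 and 3.32 in stimulated and unstimulated wildtype cells. Its difference in the fit was -1.56 ± 0.27 (adjusted p = 0.0186), and both of its probes were lower in both genotypes. Ccnd1, a D cyclin known mainly from cells outside the lymphoid lineage, was at -4.56 in stimulated and -2.81 in unstimulated cells labelled knockout, and at the floor in stimulated and -2.72 in unstimulated wildtype cells. It fell by 2.02 ± 0.34 in the fit (adjusted p = 0.0168), where the wildtype difference is a bound (at most -2.29).

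Ccnd2, the D cyclin that activated lymphocytes are known to induce, was higher in both stimulated arrays. Its levels were 5.65 and 3.79 in stimulated and unstimulated cells labelled knockout, and 4.71 and 3.88 in stimulated and unstimulated wildtype cells. That is 3.62-fold higher in the cells labelled knockout and 1.78-fold higher in wildtype, and the difference of 1.34 ± 0.36 missed the threshold (adjusted p = 0.0544). It passed in 6 of the 10 alternative fits, with the authors' normalized values and with quantile normalization among them. Cdk4, the kinase partner, had levels of 5.02 and 3.95 in stimulated and unstimulated cells labelled knockout, and of 4.83 and 3.78 in stimulated and unstimulated wildtype cells. Its differences were close to each other, at 1.07 and 1.05, and its fit value of 1.06 ± 0.29 did not pass (adjusted p = 0.0601). The 3 Cdk4 probes disagreed in size, with differences of 0.35, 1.81 and 1.01 in wildtype and 1.34, 0.51 and 1.36 in the cells labelled knockout. Cdk6 had a signal above the floor in 1 array only, stimulated cells labelled knockout, at -4.95.

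The next step, cyclin E with Cdk2, was lower or little moved. Cyclin E1 (Ccne1) had levels of -2.56 and -1.49 in stimulated and unstimulated cells labelled knockout, and of -2.77 and -1.37 in stimulated and unstimulated wildtype cells. It was 2.10-fold and 2.66-fold lower, and its fit value of -1.24 ± 0.34 did not pass (adjusted p = 0.0576). One of its 2 probes fell below the floor after stimulation, and a floor at the 60th percentile gave differences of -0.63 and -0.91. Cdk2 itself differed by 0.066 in the cells labelled knockout and -0.62 in wildtype. Cdc25a, the phosphatase that activates it, differed by 1.01 and 0.50, with an adjusted p of 0.143.

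Of the retinoblastoma family, the pocket proteins that hold E2F in check, Rbl2 fell. Rbl2, p130, is the member known to form repressor complexes in resting cells. Its levels were 0.71 and 2.03 in stimulated and unstimulated cells labelled knockout, and 0.24 and 1.93 in stimulated and unstimulated wildtype cells, a fit difference of -1.498 ± 0.29 (adjusted p = 0.0232). Rbl1 differed by -0.62 and -0.44 in the cells labelled knockout and wildtype and did not pass (adjusted p = 0.292). Its 2 probes disagreed, at -0.19 and -1.04 in cells labelled knockout and, in the same order, at -1.03 and 0.15 in wildtype. Rb1, whose probe had 10 spots, had levels of 2.94 and 2.77 in stimulated and unstimulated cells labelled knockout and of 2.33 and 2.60 in stimulated and unstimulated wildtype cells. Its differences were 0.17 and -0.27, with an adjusted p of 0.938, and with quantile normalization and the authors' values both were below 0.

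**Figure D3:**
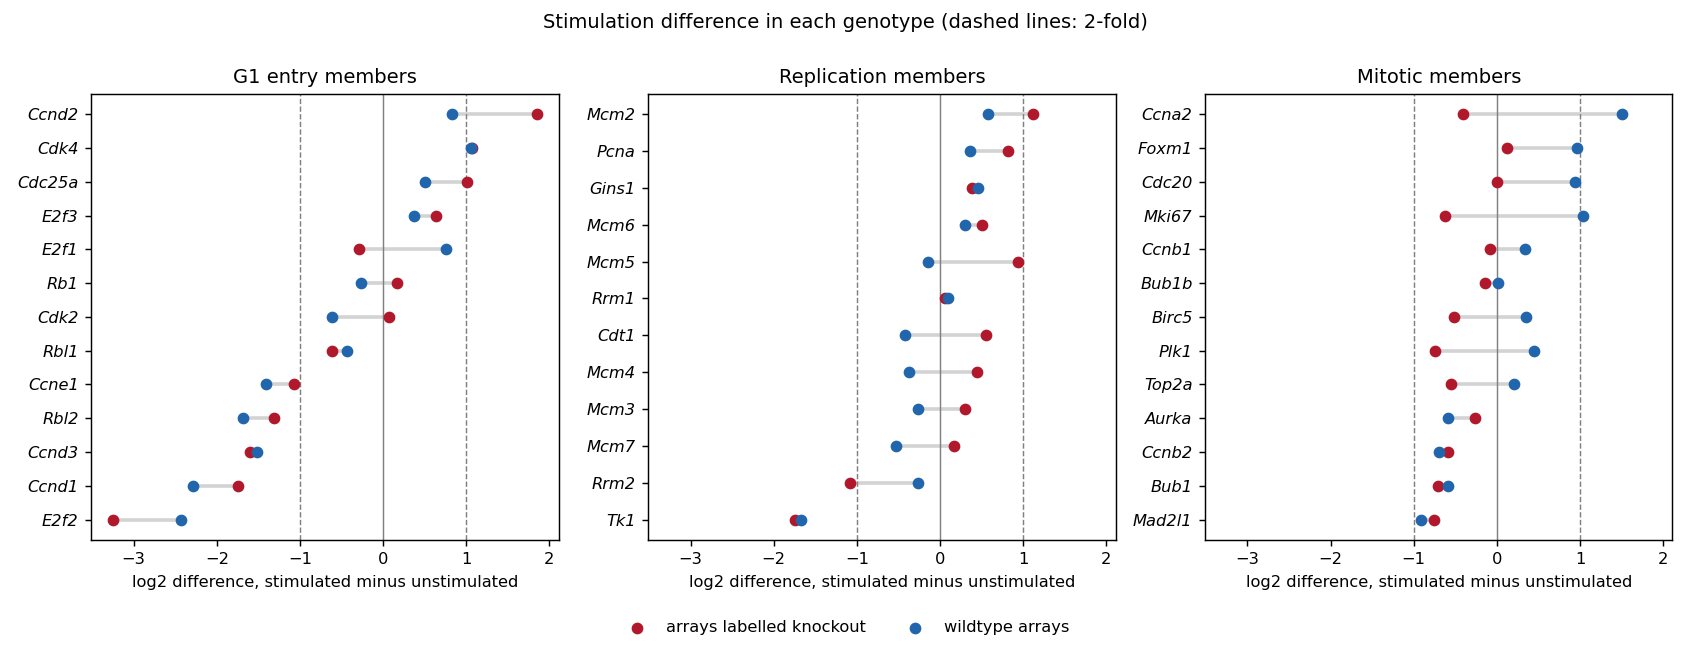
Log2 difference, stimulated minus unstimulated, of the members measured in both genotypes, in arrays labelled knockout (red) and in wildtype arrays (blue), with 1 array behind each level. Dashed lines mark 2-fold, and in the mitotic panel Ccna2, Mki67 and Plk1 are right of 0 in wildtype and left of it in the arrays labelled knockout.

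Among replication members only the salvage enzyme thymidine kinase (Tk1) passed the test. Tk1 had levels of -0.25 and 1.49 in stimulated and unstimulated cells labelled knockout, and of -0.73 and 0.95 in stimulated and unstimulated wildtype cells. It fell by 1.71 ± 0.29 (adjusted p = 0.0169), with stimulated arrays below unstimulated ones in both genotypes. The ribonucleotide reductase subunits, which supply deoxynucleotides, were not alike. Rrm2, the subunit known to be made in S phase, differed by -1.08 in the cells labelled knockout and -0.27 in wildtype, while Rrm1, known to be steadier, differed by 0.063 and 0.10, and neither passed (adjusted p = 0.213 and 0.889).

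The 6 subunits of the MCM helicase, which is loaded onto origins in G1, lay above 0 after stimulation in cells labelled knockout in 6 of 6 cases, and in wildtype in 2 of 6, where 52.8% and 49.0% of all genes did. In cells labelled knockout the count was 5 of 6 with quantile normalization and with the authors' values, since Mcm7 was then at -0.11. Mcm5 had levels of 3.13 and 2.19 in stimulated and unstimulated cells labelled knockout, and of 1.78 and 1.92 in stimulated and unstimulated wildtype cells. Its differences were 0.94 and -0.15, against a spot SD of 0.0990 and 0.103. Mcm2 differed by 1.12 and 0.58, the only MCM subunit past 2-fold in either genotype. Mcm6 had levels of 4.37 and 3.87 in stimulated and unstimulated cells labelled knockout, and of 4.18 and 3.88 in stimulated and unstimulated wildtype cells, and was above 0 in both. Mcm7 had 4.36 and 4.20 in stimulated and unstimulated cells labelled knockout, and 3.58 and 4.10 in stimulated and unstimulated wildtype cells. Mcm3 (0.31 and -0.27) and Mcm4 (0.45 and -0.37) also had opposite signs in the 2 genotypes, and no MCM subunit passed the test, Mcm2 coming nearest (adjusted p = 0.109).

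The other replication members were mixed. Cdt1, which loads the helicase with Cdc6, differed by 0.55 in cells labelled knockout and -0.42 in wildtype. Pcna, the sliding clamp of the DNA polymerases, had levels of 5.19 and 4.37 in stimulated and unstimulated cells labelled knockout, and of 4.83 and 4.46 in stimulated and unstimulated wildtype cells. Gins1, a subunit of the active helicase, differed by 0.39 and 0.46. Cdc6 stayed at or near the floor, at -4.74 at most.

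No mitotic member passed the test of stimulation, and the lowest adjusted p was 0.150, for the spindle checkpoint protein Mad2l1. Cyclin A2 (Ccna2), needed in S phase and for mitotic entry, had levels of 0.23 and 0.64 in stimulated and unstimulated cells labelled knockout, and of 1.51 and 0.0091 in stimulated and unstimulated wildtype cells. Its highest array was stimulated wildtype, 2.84-fold above unstimulated wildtype. Mki67, the Ki-67 proliferation marker, had 1.03 and 1.65 in stimulated and unstimulated cells labelled knockout, and 1.79 and 0.76 in stimulated and unstimulated wildtype cells. The wildtype difference of 1.03 was under 2-fold when arrays were scaled to the median (0.78) or the brightest probe stood for the gene (0.85), while both Mki67 probes were higher in wildtype and lower in the cells labelled knockout. The mitotic kinase Plk1 had -0.36 and 0.39 in stimulated and unstimulated cells labelled knockout, and 0.55 and 0.10 in stimulated and unstimulated wildtype cells. Cdc20, the activator of the anaphase promoting complex, had 2.68 and 2.68 in stimulated and unstimulated cells labelled knockout, and 3.02 and 2.08 in stimulated and unstimulated wildtype cells. Foxm1, the factor that drives this group, differed by 0.12 and 0.96 in the cells labelled knockout and wildtype, with 1 of its 2 probes below the floor in all 4 arrays.

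The remaining mitotic members did not all split by genotype. Topoisomerase Top2a (-0.56 and 0.20), survivin (Birc5, -0.51 and 0.35) and cyclin B1 (Ccnb1, -0.086 and 0.33) went below 0 in the cells labelled knockout and above it in wildtype, the 3 Ccnb1 probes disagreeing in sign. Of the 3 Birc5 probes 1 was below the floor in all 4 arrays, which shrinks the averaged differences. The others differed by -0.74 and -0.80 in cells labelled knockout and by 0.51 and 0.53 in wildtype. Cyclin B2 (Ccnb2), the kinase Aurka, the checkpoint kinase Bub1 and Mad2l1 went below 0 in both genotypes, by -0.26 to -0.92. The checkpoint protein Bub1b stayed within -0.15 and 0.0089. In all, 7 of the 13 measured mitotic members were below 0 in the cells labelled knockout and above 0 in wildtype. Of these, Ccnb1, Top2a and Bub1b were below 0 in both genotypes in some alternatives. Over all genes 52.8% were above 0 in cells labelled knockout and 49.0% in wildtype, and the share with opposite signs is not given here.

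Set side by side, the 3 groups had different medians in the 2 genotypes. In stimulated against unstimulated cells labelled knockout, the median difference was -0.12 for 14 measured G1 members, 0.39 for 13 replication members and -0.51 for 13 mitotic members, against 0.048 over all measured genes. In wildtype the same medians were -0.44 for 13, -0.21 for 12 and 0.33 for 13 members, against -0.020 over all genes. The wildtype mitotic median was 0.083 with scaling to the median. By size, 4 of 40 members were 2-fold higher and 7 lower in cells labelled knockout, where 13.5% of all genes were higher, 13.8% lower and 27.3% either. In wildtype 3 of 38 were higher and 6 lower, against 14.2%, 12.8% and, for either, 27%. These shares are near those over all genes in either genotype. Past 2-fold in the same direction in both were 7 members, Ccnd1, Ccnd3, Ccne1, E2f2, Rbl2 and Tk1 lower and Cdk4 higher, where 7.72% of all genes were lower in both and 7.13% higher in both. Cdk4 came under 2-fold in wildtype with scaling to the median (0.80), quantile normalization (0.99), the authors' values (0.65) and the brightest probe (0.35), and in cells labelled knockout with quantile normalization (0.82). In opposite directions 0 members were past 2-fold.

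Labelled knockout against wildtype asks which members differ with Med23 in either state. In unstimulated cells 0 of 39 members were 2-fold different in either direction, where 3.31% of all genes were higher, 1.42% lower and 4.73% either. All 13 measured mitotic members were nevertheless above 0 there, by 0.28 to 0.88 with a median of 0.60, while 46.2% of all genes were above 0. Mki67 (0.88), Ccnb1 (0.83), Top2a (0.68), Ccnb2 (0.67) and Bub1 (0.66) were at the upper end, and Plk1 at the lower. Their median stayed between 0.52 and 0.63 in the 7 alternatives. G1 members had a median of 0.054 and replication members one of 0.27. E2f2 was 1.74-fold lower in unstimulated cells labelled knockout.

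The unstimulated arrays differed also in signal from markers of other cells. Summed linear levels of 11 macrophage and dendritic genes were 4.87 in unstimulated cells labelled knockout and 2.07 in unstimulated wildtype cells, and those of 6 plasma cell genes were 26.2 and 15.3. Those of 9 B cell genes were 2.31 and 1.15, with 7 of the 8 measured above 0 and a median difference of 0.55. Those of 12 T cell genes were 779.7 and 765.6, and those of 16 neutrophil precursor genes 2.88 and 2.99. Their part in the mitotic difference was not tested.

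In stimulated cells 1 of 40 members was 2-fold higher in the array labelled knockout and 2 were lower, where 4.98% and 8.13% of all genes were. Mcm5 was 2.56-fold higher, and E2f2 and Ccna2 were 3.07-fold and 2.44-fold lower. Of the 13 replication members 12 were above 0, where 56.5% of all genes were, with a median of 0.48 against 0.091 over all genes. Rrm2 was the exception at -0.20. Cdc6, among the 12, was at 0.015, a bound, since it was at the floor in stimulated wildtype cells. With scaling to the median, which moves the median of all genes to 0.28, the replication median was 0.68 and 5 members were 2-fold higher. G1 members had a median of 0.31 and mitotic members one of -0.076, and the sign of the mitotic one turned in some alternatives (up to 0.13). In limma's additive fit 0 of 39 members and 0 of 13804 genes passed for genotype, with an unadjusted p under 0.05 in 2 members, E2f2 (-1.21, adjusted p = 0.885) and Ccnb2 (0.72, adjusted p = 0.9996), and in 3.96% of all genes.

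The stimulation difference in cells labelled knockout minus that in wildtype asks whether the response depends on Med23. It uses all 4 arrays and cannot be tested with 1 array per group. It was past 2-fold for 2 of 40 members above 0 and 4 below, where 7.07% and 10.6% of all genes were, 17.7% in all. Mcm5 (1.09) and Ccnd2 (1.02) were above, and both came under 2-fold with quantile normalization and with the authors' values. Ccna2 (-1.91), Mki67 (-1.65), Plk1 (-1.20) and E2f1 (-1.05) were below. With scaling to the median Plk1 (-0.91) and E2f1 (-0.76) came under 2-fold, and so did E2f1 with quantile normalization and the authors' values (-0.96 in both) and with a pseudocount (-0.98). The spot SD of this quantity, taken from probes with repeated spots, was 0.152 at the levels of Mcm5 and Ccnd2. It was 0.219 at those of Ccna2, Mki67 and Plk1 and 0.451 at that of the dimmer E2f1.

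By group, mitotic members had a median of -0.76, with 10 of 13 below 0, replication members 0.45, with 8 of 13 above 0, and G1 members 0.30, against 0.090 over all genes. Over all genes 55.5% were above 0, and the replication count is near that share. Over the 7 alternatives the mitotic median lay between -0.76 and -0.42 and the replication median between 0.20 and 0.74. This quantity shares its unstimulated arrays with the comparison above: for Mki67 the unstimulated arrays differed by 0.88 and the stimulated ones by -0.77, and for Ccna2 by 0.63 and -1.29.

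The stimulated wildtype array also carried the neutrophil precursor and red cell genes described above, and cells of both lineages are known to divide in bone marrow. In summed linear level, the 15 mitotic members had 14.5 and 18.1 in stimulated and unstimulated cells labelled knockout, and 19.0 and 11.8 in stimulated and unstimulated wildtype cells, as the plot of markers beside them shows. Among the mitotic members above the floor 5 had their highest array in stimulated wildtype, and 8 had their lowest in unstimulated wildtype. The part of the neutrophil precursor and red cell RNA in the mitotic values of the stimulated wildtype array was not tested. Of the 13 replication members 10 had their highest array in stimulated cells labelled knockout, and the part of RNA of other cells in this was not tested either. The shares of all genes with their highest or lowest level in these arrays are not given here. None of these counts of highest and lowest arrays can therefore be called unusual.

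**Figure D4:**
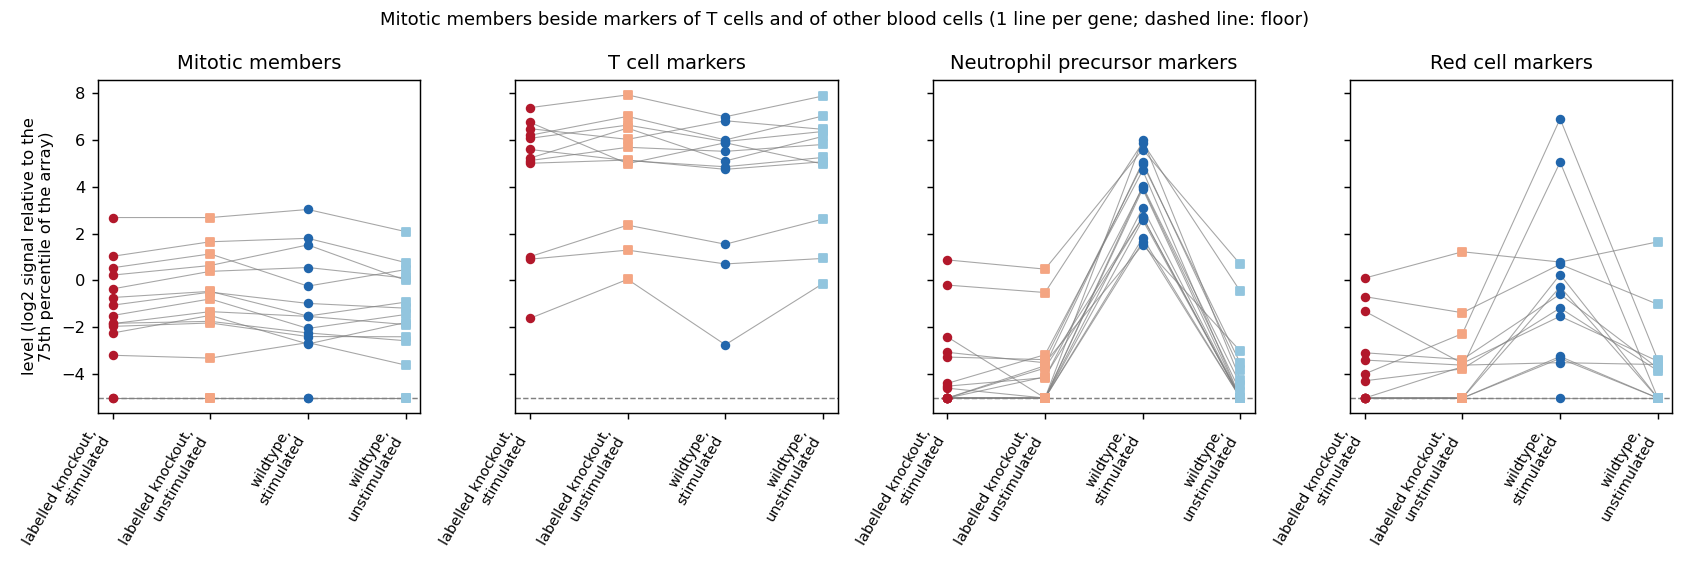
Levels (log2, scaled to each array's 75th percentile) of the 15 mitotic members, 12 T cell markers, 16 neutrophil precursor markers and 13 red cell markers in the 4 arrays, 1 line per gene, with the floor dashed. The neutrophil precursor and red cell lines peak in the stimulated wildtype array, where their summed linear levels were 344.2 and 158.3 and those of the mitotic members and T cell markers were 19.0 and 558.7.

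Other genes of the same pathways were read in the same fit. Their lists were chosen with earlier results of these data known. Of 23 further G1 genes tested 2 rose and 0 fell, of 44 further replication genes 2 rose and 0 fell, and of 36 further mitotic genes 0 rose and 1 fell. Over all genes 7.09% rose and 7.25% fell, so these counts are near or below the shares over all genes. Tfdp1, the DNA binding partner of the E2F factors, rose by 1.45 ± 0.29 (adjusted p = 0.0252), and Wee1, the kinase that holds Cdk1 inactive, by 1.37 ± 0.33 (adjusted p = 0.0419). The origin recognition subunit Orc2 rose by 1.93 ± 0.38 (adjusted p = 0.0245) and the polymerase delta subunit Pold2 by 1.33 ± 0.29 (adjusted p = 0.0312). The condensin subunit Smc4 fell by 1.34 ± 0.30 (adjusted p = 0.0351), with levels of 4.03 and 5.27 in stimulated and unstimulated cells labelled knockout and of 4.13 and 5.57 in stimulated and unstimulated wildtype cells. E2f5 (1.12) and Tfdp2 (-1.18) were past 2-fold in both genotypes without passing the test (adjusted p = 0.0710 and 0.0596).

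The further mitotic genes had a median stimulation difference of -0.48 over 37 measured genes in cells labelled knockout and of 0.19 over 37 in wildtype. In unstimulated cells labelled knockout against unstimulated wildtype cells 32 of 38 were above 0, with a median of 0.50, and 3 were 2-fold higher. Over all genes 46.2% were above 0 there and 3.31% were 2-fold higher. The difference of the stimulation differences had a median of -0.76, with 12 of 38 2-fold below 0 and 1 above. Over all genes its median was 0.090, with 10.6% 2-fold below 0 and 7.07% above. These genes were measured on the same 4 arrays, so they are no repeat of the experiment. The atypical repressor E2f8 was the 1 gene of these lists past 2-fold in opposite directions, with levels of -0.97 and 0.25 in stimulated and unstimulated cells labelled knockout, and of 0.51 and -0.70 in stimulated and unstimulated wildtype cells.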

How the data were processed

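RNA of 4 CD4 T cell samples was hybridised to 1-colour Agilent arrays, 1 array per group, from 1 µg of total RNA labelled with Cy3, per the labels' protocols. The deposited intensity of each spot is on a linear scale, was produced with Agilent Feature Extraction (version 10.7.3.1, per the submitters' processing notes) and was not normalized between arrays, per the file headers. The authors' log2 values of 17878 probes, made in GeneSpring GX (version 11.5.1, per the file headers) by a normalization not given in the sources used here, served as an alternative. No flags or background columns were used here. Spots were averaged on the log2 scale, the array's 75th percentile was subtracted, and a floor was set at the median over arrays of the 40th percentile. Probes were named through RefSeq accessions (GRCm38.p6), 26299 of 39429 matching, and a gene's probes were averaged. Precision is limited by the number of arrays.

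The fit used limma 3.58.1 (lmFit, eBayes with trend) in R 4.3.3 on genes above the floor in at least 2 of the 4 arrays, with Benjamini-Hochberg adjustment and a threshold of 0.05, and was tested on simulated data. Levels are given for members past 2-fold in the same direction in both genotypes, past it in opposite directions or past it in the difference of differences, and for the 3 with the highest mean level in each group. Genes of the further lists are named when past 2-fold in both genotypes. Printed promoters came from the named members, 8 in all, by their mean stimulation difference. Alternatives were another scaling, starting table, floor, pseudocount or probe choice, another filter or prior in the fit, and, added after seeing the data, each array left out. The members, lists and tests were chosen with earlier results of these data known.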

Additional observations from a re-analysis of the deposited data

Results flagged for a closer look

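Of 15 members whose stimulation difference had opposite signs in the 2 genotypes, 10 differed from 0 by more than the spot SD in both. The share of all genes that did so is not given here, so neither count can be called unusual. The medians of 2 groups also had opposite signs. With 1 array per group none of these differences was tested. The other 5 were Cdk2, Ccnb1, Top2a, Bub1b and Birc5, the last averaged over 3 probes of which 1 was below the floor in all 4 arrays. The stimulation difference in cells labelled knockout minus that in wildtype was 0.58 for Mcm3, 0.82 for Mcm4, 1.09 for Mcm5, 0.69 for Mcm7, 0.97 for Cdt1 and 0.44 for Rb1, each above 0 in cells labelled knockout and below 0 in wildtype. Mcm7 and Rb1 were below 0 in both genotypes with quantile normalization and with the authors' values, while the other 4 kept opposite signs in the 7 alternatives. Of the 10, those below 0 in cells labelled knockout and above 0 in wildtype were E2f1 (-1.05), Ccna2 (-1.91), Mki67 (-1.65) and Plk1 (-1.20), and they kept these signs in the 7 alternatives. The median of the replication members was 0.39 in cells labelled knockout and -0.21 in wildtype. That of the mitotic members was -0.51 in cells labelled knockout and 0.33 in wildtype, the wildtype one being 0.083 with scaling to the median. Apart from the medians in cells labelled knockout, these values use the stimulated wildtype array. There the summed linear levels of neutrophil precursor and red cell genes were 344.2 and 158.3, against at most 3.50 and 4.22 in the other arrays. The part of that RNA in the values that use the stimulated wildtype array was not tested.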

How the results depend on the processing

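No value given here reversed its direction past a call under the alternatives run, and 191 recomputed counts and medians stayed close to the values above, while 32 moved. For the others the cause was not tested. With scaling to the median, 1 member was 2-fold higher after stimulation in wildtype, and the wildtype medians were -0.69 for G1 entry, -0.46 for replication and 0.083 for mitosis. Between genotypes after stimulation it gave 5 members higher and a replication median of 0.68, and for the difference of stimulation differences 4 above and 2 below with a replication median of 0.74. Quantile normalization and the authors' values gave 1 and 2 members 2-fold higher in cells labelled knockout, replication medians of 0.18 and 0.20, and for the difference of differences 0 members above in both and replication medians of 0.20 and 0.26. The floor at the 20th percentile gave a G1 median of 0.066 in cells labelled knockout and 5 members higher in wildtype. The brightest probe alone gave G1 medians of -0.62 in wildtype and -0.082 between unstimulated genotypes.

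In limma's additive fit members that rose numbered 2 with quantile normalization, 4 with the authors' values (Ccnd2, Cdk4, Foxm1 and Mcm2), 2 under the 60th percentile floor, 1 with a pseudocount, 1 with the brightest probe and 2 with genes above the floor in all 4 arrays. Without the filter 0 members fell and 0 genes passed, with 3017 at an unadjusted p under 0.05. With each array left out, 0 to 2 members fell and 0 to 3 rose. Over all genes 1980 passed for stimulation, against 3469 of a smaller table with the authors' values. For genotype 0 genes passed, against 204 with scaling to the median, 124 with the authors' values, 27 under the 60th percentile floor and 0 to 11 in the others, 0 members among them.

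Scaling to the median and the authors' values moved the median of all genes in wildtype to -0.23 and -0.18, against -0.020, and that of the difference of differences to 0.34 and 0.19, against 0.090. The share of called genes that were higher was 52.6% in wildtype, against 36.2% and 41.6%, 38.0% between stimulated genotypes, against 59.97% and 51.8%, and 39.9% for the difference of differences, against 66.9% and 52.6%. Dim members near the floor, Ccnd1 and Foxm1 among them, are limited by spot noise. No paired analysis was possible because each group has 1 array, so that no 2 replicate numbers are shared, and the additive fit instead takes the stimulation difference within each genotype.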
